A study of Mus musculus with 2 samples.

Results

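Mir132 and Mir212 are neighbouring microRNA (miRNA) genes that are transcribed together and, in neurons, are switched on by synaptic activity through the transcription factor CREB. The pair was chosen by gene name, as the 2 of 1973 miRNA genes in the tables whose identifiers map to these symbols, and the rule uses no measured value, although the pair was picked with earlier results of these data known. A miRNA is cut from a hairpin precursor as a short strand that pairs through its seed, bases 2 to 8, with messenger RNAs and represses them. In the brain, miR-132 is known to promote the growth of dendrites, the branches on which neurons receive synapses. The counts came from neural tube, the embryonic tissue that forms the central nervous system, of healthy B6NCrl mouse embryos aged 15.5 days. The 2 samples are biological replicates of a single group (1 group), with the sexes pooled. Library 1 came from 78 embryos and library 2 from 62 embryos. No stimulus, genotype or second stage was compared, so the samples give the level of the pair in this tissue and the difference between the pools, and hold no measure of its response to activity.

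On the mm10 genome (GRCm38), the Mir212 hairpin lies on chromosome 11 at positions 75173388 to 75173478 and the Mir132 hairpin at 75173682 to 75173747, both on the plus strand with 203 bases between them. Both lie in intron 1 of 1700016P03Rik, a non-coding transcript of 3 exons on the same strand in GENCODE M21. The nearest other genes are on the minus strand: Hic1, a transcriptional repressor, 3868 bases before the pair, and Ovca2, a hydrolase whose span overlaps that of 1700016P03Rik, 2194 bases after it. In the count tables Mir212 is ENSMUSG00000065590.1. Mir132 is ENSMUSG00000065537.1 there and ENSMUSG00000065537.2 in M21, so the interval in which it was counted may differ from the M21 positions given here. RefSeq places both hairpins at the same positions as M21.

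**Figure D1:**
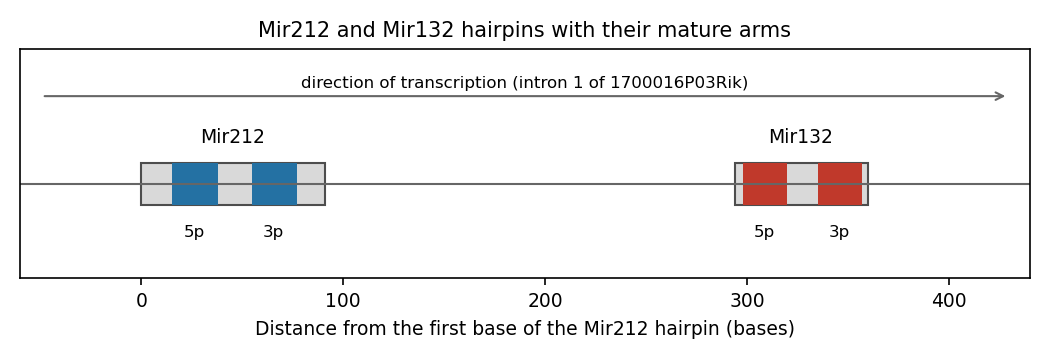
Map of the Mir212 and Mir132 hairpins (grey boxes) with their 5p and 3p mature arms (coloured) against distance in bases from the first base of the Mir212 hairpin. Both hairpins read in the same direction inside intron 1 of 1700016P03Rik, with 203 bases between them.

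The mature strands of the pair are shown from RefSeq (GRCm38.p6), 5′ to 3′, with the seed in capitals, because the shared seed of the 3p strands is what makes them one family.
mmu-miR-132-3p: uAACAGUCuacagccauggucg
mmu-miR-212-3p: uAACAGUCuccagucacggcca
mmu-miR-132-5p: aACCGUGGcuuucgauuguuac
mmu-miR-212-5p: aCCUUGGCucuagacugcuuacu

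The 3p strands carried the same seed and were identical over their first 9 bases. They matched at 17 of 22 positions (77.3%), and the 5 differences, written with the miR-132-3p base first and counted from 1 at the 5′ end, were A10C, C14U, U17C, U20C and G22A. Among the 1738 mature mouse miRNAs of the RefSeq table, 0 outside the pair had the 3p seed. The 5p seeds differed from each other, and each was found in 1 mature miRNA only, its own.

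The hairpins are shown because their length and sequence bear on how reads could be told apart, with the mature arms in capitals.
Mir132 hairpin: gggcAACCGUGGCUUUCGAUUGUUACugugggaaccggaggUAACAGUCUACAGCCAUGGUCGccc
Mir212 hairpin: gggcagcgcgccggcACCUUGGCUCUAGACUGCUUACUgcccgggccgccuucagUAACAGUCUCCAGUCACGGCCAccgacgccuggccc

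The Mir132 hairpin has 66 bases with a GC content of 57.6%, and the Mir212 hairpin has 91 bases with a GC content of 69.2%. The longest stretch common to both was 10 bases. Neither hairpin shared 20 bases with another annotated miRNA precursor, and each of the 4 mature strands was found in 0 of 141767 M21 transcripts other than that of its own gene. No gene received the reads that aligned to several places, which made up 29.4% of library 1 and 29.7% of library 2. Counts are given per gene and do not separate the 5p from the 3p strand.

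Mir132 was counted at a moderate level and Mir212 at a low one in both libraries. Mir132 had 3061 counts in library 1 and 5393 counts in library 2. Scaled to 1000000 sense-strand counts in miRNA genes (CPM), this was 724 CPM in library 1 (95% exact Poisson interval 698 to 750) and 893 CPM in library 2 (869 to 917). The intervals did not overlap and the mean was 808 ± 120 CPM (SD, n = 2). Mir132 ranked 93 of 1973 genes by this mean, at 103 in library 1 and 90 in library 2. It stood above 74.4% of the 363 genes detected, that is with at least 10 counts in each library.

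Mir212 had 173 counts in library 1 and 269 counts in library 2. Its level was 40.9 CPM in library 1 (95% exact Poisson interval 35.0 to 47.5) and 44.5 CPM in library 2 (39.4 to 50.2). These intervals overlapped, and the mean of 42.7 ± 2.56 CPM (SD, n = 2) ranked 247 of 1973. Both members were far above 3 counts, the limit that a count of 0 allows, which came to 0.709 CPM in library 1, against 0.497 CPM in library 2. Neither member had a count on the antisense strand in either library, against 1.80% of gene-assigned reads on that strand in library 1 and 1.60% in library 2. Intervals and limits cover counting error only, since reads amplified by PCR are not independent molecules. In bulk tissue, fewer cells of a type and less RNA per cell cannot be told apart.

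**Figure D2:**
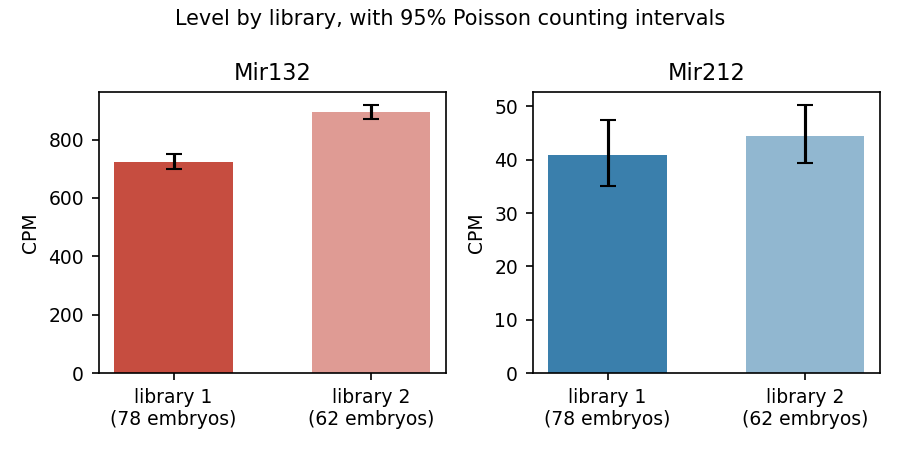
CPM of Mir132 (left) and Mir212 (right) in library 1 and library 2; each bar is 1 library and each error bar its 95% exact Poisson counting interval. The Mir132 bars stand at 724 and 893 CPM with intervals apart, the Mir212 bars at 40.9 and 44.5 CPM with intervals that overlap; the panels have different scales.

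Although the hairpins lie in the same intron, their counts differed by more than an order of magnitude. Mir132 had 17.7 counts for each Mir212 count in library 1 (95% exact Clopper-Pearson interval 15.2 to 20.7) and 20.05 in library 2 (17.7 to 22.7), a mean of 18.9 ± 1.67 (SD, n = 2). Mir132 thus made up 94.7% of the pair's counts in library 1 and 95.2% in library 2. A miRNA read spans the mature strand, so counts were compared without division by precursor length. Divided by the M21 lengths, Mir132 stood at 24.4 times Mir212 in library 1 and 27.6 times in library 2. The interval in which Mir132 was counted may differ from that of M21. The ratio did not differ between the libraries beyond counting error, with an odds ratio of library 1 to library 2 of 0.883 (95% interval 0.723 to 1.08; Fisher's exact test, two-sided, p = 0.223). How well each mature strand is ligated and amplified was not measured, and its part in the ratio was not tested.

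Most other close miRNA gene pairs were less unequal. Among 60 other pairs of consecutive detected miRNA genes on the same strand within 1000 bases, the log2 ratio of mean CPM of the higher to the lower gene had a median of 2.91 and ran from 0.04 to 9.15. The Mir132 and Mir212 pair had 4.24, and 39 of the 60 pairs (65.0%) had a smaller ratio. Among the 33 pairs in which neither gene shared 20 bases with another precursor, 23 had a smaller ratio and the median was 2.80. The log2 ratios of library 1 to library 2 of Mir132 and Mir212 differed by 0.18, against a median difference of 0.19 in the other pairs, of which 27 had a smaller one. These are descriptions, since pairs of one cluster can share a gene.

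**Figure D3:**
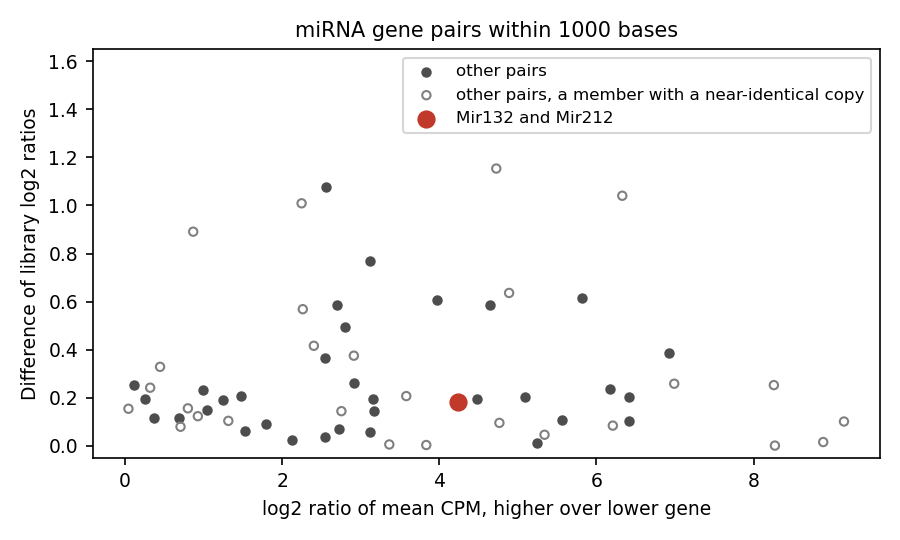
Each point is a pair of consecutive detected miRNA genes on the same strand within 1000 bases; the x axis gives the log2 ratio of mean CPM of the higher to the lower gene and the y axis the absolute difference of their log2 ratios of library 1 to library 2. Mir132 and Mir212 (red) stand at 4.24 and 0.18, inside the cloud of the 60 other pairs.

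By level, Mir132 belonged to the upper part of the neuron-enriched miRNA genes and Mir212 to the lower part. Of the 18 other genes of that list (Mir124, Mir128, Mir129, Mir137, Mir138, Mir153, Mir218 and Mir7 by symbol stem), 14 were detected. The 3 above Mir132 were Mir137, known for its role in neural differentiation, at 6917 ± 428 CPM, Mir128-1, known to restrain neuronal excitability, at 1275 ± 3.71 CPM, and Mir138-1, known from dendritic spines, at 959 ± 39.5 CPM (SD, n = 2 each). The Mir138-1 gene lay above Mir132 in both libraries, by 987 to 724 CPM in library 1 and by 931 to 893 CPM in library 2. Next below was Mir128-2 at 707 ± 68.9 CPM, less than 1 SD of Mir132 away. Mir212 lay below 13 of the 18, between Mir7j at 57.5 ± 5.36 CPM and Mir218-1 at 30.2 ± 2.53 CPM.

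Mir132 had 5.90 counts per 100 counts of these 18 genes in library 1 and 6.87 in library 2, and Mir212 had 0.333 in library 1 and 0.343 in library 2. Mir137 alone made up most of that sum, at 6615 of 12268 CPM in library 1 and 7220 of 12997 CPM in library 2. Of the list, 13 genes share 20 bases with another precursor and may be counted too low, among them Mir128-1, Mir128-2, Mir138-1 and Mir218-1. The Mir124a copies, the defining neuronal miRNA, had 8, 8 and 2 counts in library 1 and 17, 8 and 5 in library 2, and all 3 share such a stretch. The members may therefore stand lower among these genes than the counts place them.

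**Figure D4:**
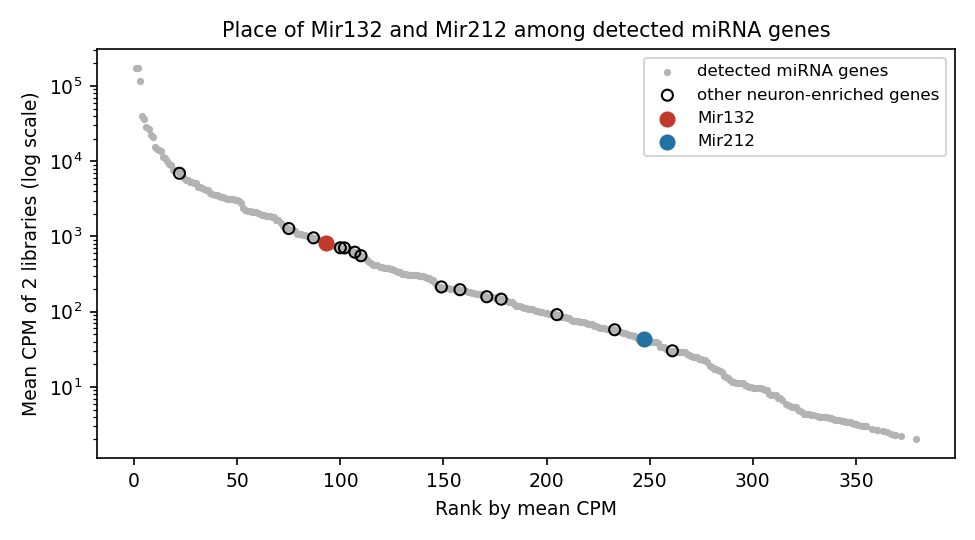
Mean CPM over both libraries (log scale) against rank for the 363 detected miRNA genes (grey), with the other neuron-enriched genes circled and the members coloured. Mir132 stands at rank 93 with 808 CPM, above all but 3 of the circled genes, and Mir212 at rank 247 with 42.7 CPM.

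Of 8 other miRNA genes linked to neuronal activity, 7 were detected, and 2 of these, Mir138-1 and Mir134, had a higher mean level than Mir132. The Mir138 genes also belong to the neuron-enriched list. Mir134, which limits dendritic spine size by repressing Limk1, had 862 CPM in library 1, against 933 CPM in library 2, within 1 SD of Mir132 by its mean of 898 ± 49.9 CPM. Mir188 had 622 ± 14.6 CPM and Mir485, known from homeostatic control of synapses, had 332 ± 9.44 CPM (SD, n = 2 each). Mir184 was near the detection limit, with 15 counts in library 1 against 22 in library 2.

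The genes whose values in the 2 libraries were nearest to those of Mir132, by Euclidean distance of log2(CPM + 1), were Mir337 at 0.10, Mir370 at 0.19, Mir467c at 0.23, Mir134 at 0.26 and Mir128-2 at 0.28. Of these, Mir337, Mir370 and Mir134 are on chromosome 12. Nearest to Mir212 were Mir326 at 0.09, Mir493 at 0.12, Mir30c-1 at 0.16, Mir6540 at 0.21 and Mir216b at 0.22. With 2 libraries, this likeness is mainly one of level. In the order of levels, the neighbours Mir467c (867 ± 22.2 CPM) and Mir337 (780 ± 73.3 CPM) lay within 1 SD of Mir132. Mir1981 (44.3 ± 3.89 CPM) and Mir326 (42.5 ± 5.24 CPM) did so for Mir212.

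Between the pools, Mir132 was lower in library 1 than in library 2 and Mir212 did not pass the test. The log2 ratio of library 1 to library 2 of Mir132 was -0.34 (95% exact counting interval -0.40 to -0.27), a ratio of 0.792 after scaling by TMM (trimmed mean of M-values) library sizes. An exact binomial test, two-sided, with Benjamini-Hochberg adjustment over 363 genes gave an adjusted p of 1.55e-24. For Mir212 the log2 ratio was -0.16 (-0.44 to 0.12; exact binomial test, adjusted p = 0.419), an interval that includes the value of Mir132. The test compares these 2 libraries by counting error alone and has no replicate check. It called 181 of 363 genes, 49.9%. Of the 363, 93 (25.6%) were called as higher in library 1 and 88 (24.2%) as higher in library 2, as Mir132 was. A call of this kind was therefore common. Among the 50 detected genes nearest to Mir132 in level, 37 were called, 19 of them as higher in library 2.

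With a test that adds the spread between the pools, edgeR's exact test at a biological coefficient of variation of 34.3%, 8 of 363 genes were called, 2.20%, and neither member was among them (adjusted p = 1.0 for both). That spread was estimated from the difference between these same 2 libraries, which is also what was tested. The lack of a call for the members therefore decides nothing about them. In size, the difference of Mir132 exceeded the typical one: the median absolute log2 ratio over all detected genes was 0.20, and 113 of the 363 had a larger one than Mir132. Among the 50 detected genes nearest to it in level, 9 had a larger one. For Mir212, 35 of the 50 genes nearest in level had a larger one.

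**Figure D5:**
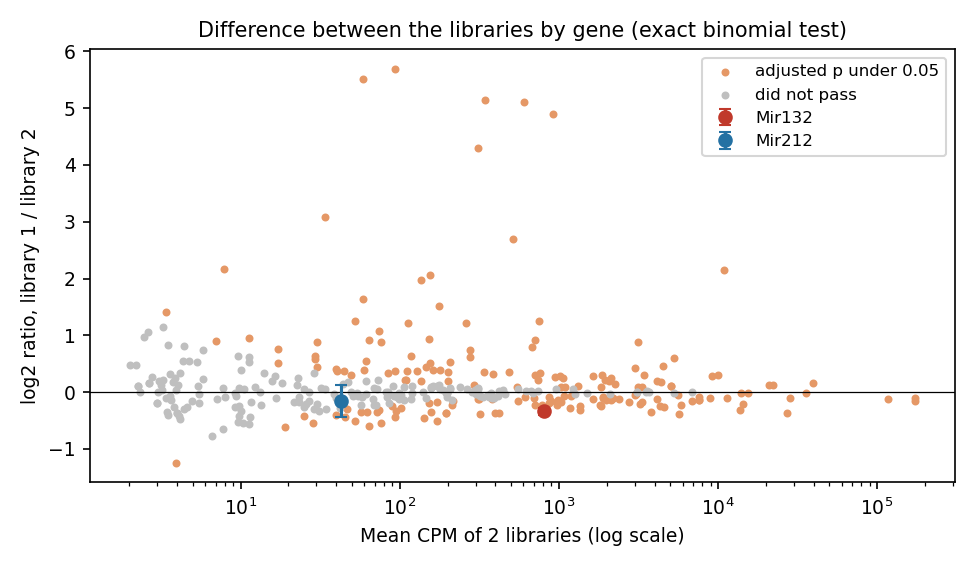
Log2 ratio of library 1 to library 2 against mean CPM (log scale) for 363 detected miRNA genes, with genes past an adjusted p of 0.05 in the exact binomial test in orange and the members with 95% exact counting intervals. Mir132 stands at -0.34 and Mir212 at -0.16, while the genes highest in library 1 lie far above the line.

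Of the 14 detected neuron-enriched genes, 0 passed the exact binomial test as higher in library 1 (25.6% of all detected genes did), 5 passed as higher in library 2 (24.2% of all did), and 9 did not pass. These counts depend on the scaling. With library size alone, 1 passed as higher in library 1 and 3 as higher in library 2, beside 103 and 68 of all 363 detected genes. Without the 4 non-neural lists (epithelial, mesenchyme, endocrine and leukocyte), 2 and 3 did, beside 120 and 64 of the 363. Scaled to their own sum, 5 and 3 did, beside 145 and 38 of the 363. That scaling sets the list's sum equal in both libraries, so it cannot show a shift of the whole list. With TMM the median log2 ratio of the 14 neuron-enriched genes was -0.10, against -0.0036 over all detected genes. Mir7-2, at -0.36, was the 1 gene of the list with a lower log2 ratio than Mir132. In the activity-linked list, 2 of the 7 detected genes passed as higher in library 2, Mir134 (-0.15) and Mir146 (-0.32). The other 5 did not pass. Since 24.2% of all detected genes passed in that direction, these 2 calls do not set the list apart. Scaled to the neuron-enriched sum, 0 of the 7 passed as higher in library 2, beside 38 of all 363 detected genes. The 3 that then passed the other way stood beside 145 of all 363 detected genes. Mir146 is known mainly from innate immunity and shares 20 bases with another precursor.

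Markers of some other cell types differed between the pools, most of all the epithelial ones. The epithelial genes summed to 5458 CPM in library 1, against 631 CPM in library 2 (7 of 7 detected, 7 higher in library 1). The mesenchyme and smooth muscle genes summed to 22420 CPM in library 1, against 7594 CPM in library 2 (6 of 8 detected, 5 higher in library 1, 1 higher in library 2), with Mir145b at 0. Mir143 made up most of that sum, at 17950 CPM in library 1 and 3951 in library 2. With TMM, Mir140 passed the other way, at 2985 CPM in library 1 and 3025 in library 2. The Mir140 call depended on the scaling. With library size alone, 5 of the 6 detected genes passed as higher in library 1 and 0 as higher in library 2, beside 103 and 68 of all 363 detected genes. Scaled to the neuron-enriched sum, all 6 passed as higher in library 1, beside 145 of the 363. The endocrine and gut genes summed to 1475 CPM in library 1, against 495 CPM in library 2 (7 of 8 detected, 4 higher in library 1, 2 higher in library 2). Of it, Mir375 had 896 CPM in library 1 and 136 in library 2, while Mir217 (log2 ratio -0.46) and Mir216b (-0.44) passed as higher in library 2. The leukocyte genes summed to 433 CPM in library 1, against 237 CPM in library 2 (3 of 4 detected, 2 higher in library 1), with Mir142b at 0. Mir142b shares 20 bases with another precursor and may be counted too low. The endothelial gene Mir126a, which shares 20 bases with another precursor, had 22011 CPM in library 1 and 19666 in library 2 and passed as higher in library 1. The sums of other lists were flatter or ran the other way. Only 1 gene passed in each of the striated muscle, erythroid, progenitor and glial lists. Of all detected genes, 25.6% passed with TMM as higher in library 1 and 24.2% as higher in library 2. The striated muscle genes summed to 319 CPM in library 1 and 397 in library 2 (6 of 10 detected, 1 higher in library 2), with Mir133c, Mir133a-1 and Mir133a-2 at 0. Mir133a-1 and Mir133a-2 share 20 bases with another precursor, so their 0 may reflect reads that were given to no gene. The erythroid genes summed to 202 CPM in library 1 and 183 in library 2 (3 of 3 detected, 1 higher in library 1). The progenitor genes Mir9 and Mir92b summed to 2071 CPM in library 1 and 2353 in library 2 (2 of 3 detected, 1 higher in library 2). Mir92b made up most of that sum, at 1700 CPM in library 1 and 1963 in library 2. The glial genes summed to 2095 CPM in library 1 and 2328 in library 2 (3 of 3 detected, 1 higher in library 2). The summed neuron-enriched genes were closer, at 12268 CPM in library 1, against 12997 CPM in library 2. Genes sharing 20 bases with another precursor may be counted too low in the other lists as well. They were 3 of 3 glial, 2 of 3 progenitor, 2 of 3 erythroid and 5 of 10 striated muscle genes. They were also 3 of 8 mesenchyme, 3 of 8 endocrine and gut, 1 of 4 leukocyte and 0 of 7 epithelial genes.

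Without TMM, library size alone gave a log2 ratio of -0.30 for Mir132 and -0.12 for Mir212, against -0.34 and -0.16 with TMM. Leaving the epithelial, mesenchyme, endocrine and leukocyte lists (4 in all) out of these library sizes was a setting chosen after seeing the data. It gave -0.27 for Mir132 (adjusted p = 2.34e-16 in the exact binomial test) and -0.09 for Mir212 (adjusted p = 0.679 in the same test). The neuron-enriched sum was mostly Mir137, which had a log2 ratio of -0.16 with TMM. Scaled to the summed neuron-enriched genes, Mir132 had -0.22 (adjusted p = 5.77e-11, exact binomial test) and Mir212 -0.04 (adjusted p = 0.894). That scaling moved the median of all detected genes to 0.11 and the share of called genes that were higher in library 1 to 79.2%, against 51.4% with TMM. The share was 60.2% with library size alone and 65.2% without the 4 lists.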

How the data were processed

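Small RNAs of 2 neural tube pools were sequenced by microRNA-seq. The authors deposited 1 table of raw read counts per library, made on mm10 with GENCODE M4, per the deposited README texts. The aligner and counting tool, by name or version, were not given in the sources used here. Library 1 held 7925935 reads and library 2 held 11738914. Entries that name no gene (45.7% in library 1, 47.7% in library 2) stayed out of library sizes, which left sense-strand totals of 4228685 for library 1 and 6039889 for library 2. Identifiers were matched without version to GENCODE M21 (1894 of 1973).

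CPM used the sum of sense counts. Libraries were compared by an exact binomial test (scipy 1.17.1) at TMM effective sizes (edgeR 4.0.16, R 4.3.3) over 363 genes that reached 10 counts in each library; edgeR's exact test and DESeq2 1.42.0 size factors were alternatives. Across 439 genes the libraries differed beyond sampling noise (chi-square 116275 on 438 degrees of freedom), so they were kept as 2 replicates. The binomial step was tested on simulated counts with Poisson counting error alone, so that test does not cover the spread between the real pools. No test between conditions was possible with 1 group; edgeR's quasi-likelihood test was not used, since it needs replicates on each side. The members and lists were chosen with earlier results of these data known. Named genes are the members, the listed genes by level, those sharing a seed, the genes of the locus and the 5 nearest to each member; list genes singled out beyond these, and the neighbours in rank, were chosen after their values were seen.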

Additional observations from a re-analysis of the deposited data

How the results depend on the processing

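No paired analysis was possible because the samples form 1 group. Over the test and 8 alternatives (size factors, library sizes, count filters, unstranded counts and edgeR's exact test), the log2 ratio of library 1 to library 2 of Mir132 ran from -0.37 to -0.22 and that of Mir212 from -0.19 to -0.04. All 9 values were below 0 for each, but the settings reuse the same 2 libraries and are not independent checks. Mir132 passed in 8 of the 9 settings, each by the exact binomial test, which covers counting error alone. Mir132 did not pass in edgeR's exact test (-0.34), whose spread was estimated from the same difference between the libraries. Mir212 passed in 0 of 9 (adjusted p 0.389 to 1.0). edgeR's exact test called 8 genes, with 14 at an unadjusted p under 0.05, against 181 in the exact binomial test.

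Levels depended on the denominator. Over all reads of the tables, Mir132 had a mean of 423 CPM and Mir212 of 22.4 CPM, and over counts without the 3 most abundant genes 1519 CPM and 80.2 CPM. Leaving out either library gave 724 to 893 CPM for Mir132 and 40.9 to 44.5 CPM for Mir212. The log2 ratio of Mir132 to Mir212 counts was 4.24, 4.15 to 4.33 with 1 library left out, and 4.70 per base of the M21 precursor. With pseudocount 10, 5 of the 5 nearest genes of Mir132 and 4 of 5 of Mir212 were the same genes. Within 10000 bases, 60 of 92 other pairs were less unequal than the members (65.2%), against 65.0% within 1000 bases. The low count of Mir212 limits its comparison: its interval spans both no difference and that of Mir132.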

Other observations

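In the tables, 3 other miRNA genes lie within 1000000 bases of the pair on chromosome 11. Mir22, known from heart and brain, lies 289968 bases beyond Mir132 on the same strand and had 3162 CPM in library 1, against 3484 CPM in library 2, above Mir132 in both. Mir6926 had 1 count in library 1 and 4 counts in library 2, and Mir3971 had 0 counts in both libraries.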
